A study of Homo sapiens with 6 samples.

Results

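Telomerase and shelterin act together at chromosome ends, and the transcripts of 10 of their components were followed in PD-treated and DMSO-treated cells labelled HepG2. The 10 genes were taken by name from a table of 28563 genes. They are TERT, DKC1, NOP10 and GAR1 for telomerase, and TERF1, TERF2, TERF2IP, TINF2, POT1 and ACD for shelterin. HepG2 is a human cell line labelled as hepatocellular carcinoma, and PD (polydatin) is a plant stilbene glucoside dissolved in DMSO. In the PD group, 3 dishes received PD at 336 µM for 24 h according to the labels, and in the DMSO group 3 dishes received the vehicle alone for the same time. The methods of the study state a lower dose of PD for this experiment. RNA was extracted from the dishes at the end of the treatment, poly(A) RNA was selected, and 1 library per dish was sequenced with paired ends. The dishes were plated from the same cell line, so the spread between them covers culture and library preparation and no differences between donors or lines.

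Telomerase adds short repeats to the ends of chromosomes. TERT is its reverse transcriptase, and its RNA template is TERC, which dyskerin (the product of DKC1), NOP10, NHP2 and GAR1 bind as an H/ACA particle. The same proteins also bind many small nucleolar RNAs that guide the modification of ribosomal RNA. Shelterin covers the finished repeats and keeps them from being read as DNA breaks. TRF1 and TRF2, encoded by TERF1 and TERF2, bind the double-stranded repeats, and RAP1, encoded by TERF2IP, binds TRF2. TIN2, encoded by TINF2, joins both to TPP1, encoded by ACD, which holds POT1 on the single-stranded end and recruits telomerase. Most normal adult cells keep TERT off, whereas liver cancers commonly express it.

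Library totals ranged from 16308476 to 18071632 fragments. The 10 genes had between 388 and 6087 fragments in a library, apart from TERT with 39 to 138. All of them passed the minimum of 0.5 FPKM (fragments per kilobase of a gene scaled to the total of the library) averaged over the 6 libraries, as did 14400 genes in total. The labelled cell type was checked on 12 genes that hepatocytes and HepG2 cells are known for. Of these, 7 were not among the genes listed with values, namely ALB, AFP, APOB, APOH, TTR, FGB and AHSG. The 5 listed, HNF4A, APOA1, SERPINA1, FGA and TF, reached at most 0.172 FPKM in any library, so none was tested. Their sums were 0.0790 to 0.139 FPKM in DMSO and 0.0390 to 0.237 in PD. Thus the 5 listed markers were at or near 0, and the values did not bear out the labelled cell type. HepG2 is written below as the labels give it. Of the markers of other cells, 2 of 5 for leukocytes and 4 of 5 for endothelial cells were listed, none of which reached 1 FPKM. Their sums were 0.469 to 0.645 and 0.0384 to 0.0801 FPKM in DMSO and 0.530 to 0.721 and 0.00955 to 0.0249 FPKM in PD. Of the fibroblast markers, 4 of 5 were listed and only COL1A1 and PDGFRB reached 1 FPKM in any library. The sum of the 4 ran from 4.40 to 5.29 FPKM in DMSO and from 4.75 to 5.05 in PD.

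Of the 10 genes, 7 were called (adjusted p not above 0.05, limma on log2(FPKM + 1)), 3 of them lower and 4 higher in PD. Over all tested genes 58.1% were called, 26.2% as lower and 31.9% as higher, so the share called is close to the background. In the same 7 genes the libraries of the PD and DMSO groups did not overlap, which held for 65.4% of all tested genes. None of the 10 reached 2-fold on this scale, where 3.61% of all tested genes did. The 3 lower calls were telomerase genes and the 4 higher calls shelterin genes. TERT, DKC1 and GAR1 fell, TERF2IP, TINF2, ACD and, less firmly, TERF2 rose, and NOP10, TERF1 and POT1 were not called. The median log2 fold change was -0.62 for the 4 telomerase genes and 0.26 for the 6 shelterin genes, and it was 0.01 over all tested genes. In RNA from a whole dish, fewer cells that express a gene and less RNA of it per cell cannot be told apart.

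**Figure D1:**
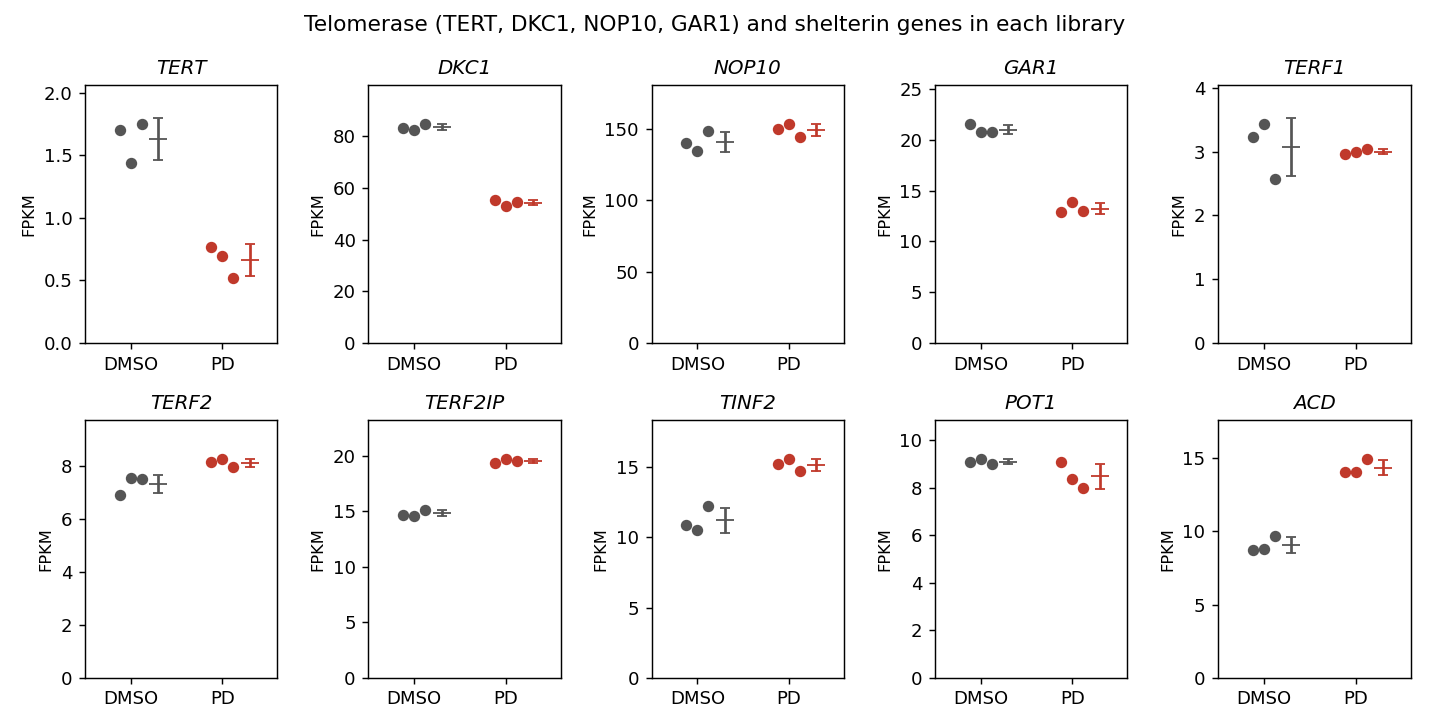
Each panel plots the FPKM of a gene (vertical axis, from 0) in the 3 DMSO and 3 PD libraries (points), with the mean and SD beside them. TERT, DKC1 and GAR1 are lower in all 3 PD libraries, TERF2, TERF2IP, TINF2 and ACD are higher, and the groups overlap for NOP10, TERF1 and POT1.

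To let the starts of genes that moved in opposite directions be set beside each other, the sequence before the start is shown for DKC1 and GAR1, which fell, and for TINF2, which rose. They were read from RefSeq promoters of GRCh38.p14, 5′ to 3′ on the strand of the gene. The runs lie at chrX:154762614-154762741 on the plus strand for DKC1 (bases -250 to -123 before the start), at chr4:109815260-109815509 on the plus strand for GAR1 and at chr14:24242675-24242924 on the minus strand for TINF2 (bases -250 to -1 for both). The run of DKC1 stops where an annotated exon of the gene begins. The GAR1 run overlaps exons of the divergent transcript GAR1-DT, and the TINF2 run lies within an exon of an antisense lncRNA. Capitals mark matches on either strand to the motifs described after the sequences.
DKC1: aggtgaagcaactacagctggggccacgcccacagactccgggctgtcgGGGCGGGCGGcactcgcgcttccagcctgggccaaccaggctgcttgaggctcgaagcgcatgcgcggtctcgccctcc
GAR1: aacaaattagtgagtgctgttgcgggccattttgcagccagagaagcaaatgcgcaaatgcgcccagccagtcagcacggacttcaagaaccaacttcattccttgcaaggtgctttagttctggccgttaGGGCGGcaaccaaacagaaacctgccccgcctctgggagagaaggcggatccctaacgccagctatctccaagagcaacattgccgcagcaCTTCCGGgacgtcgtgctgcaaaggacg
TINF2: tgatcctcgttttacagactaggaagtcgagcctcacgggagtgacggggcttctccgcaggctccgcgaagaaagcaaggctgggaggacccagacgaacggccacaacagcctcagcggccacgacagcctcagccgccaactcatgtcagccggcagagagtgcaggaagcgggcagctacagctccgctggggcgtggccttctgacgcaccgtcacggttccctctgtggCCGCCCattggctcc

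For 8 of the 10 genes the RefSeq table held a window of 250 bases before the start. Annotated exons of coding genes cover part of several windows. They take up all 250 bases for ACD, 158 for POT1, 143 for TERF2IP, 122 for DKC1 and 116 for NOP10. In the second windows of GAR1 and TINF2 they take up 161 and 40 bases. The matches of ACD thus all lie in exons. A GC box (GGGCGG), the motif that SP1 binds, was found in windows of TERT, DKC1, GAR1, TERF2IP, TINF2, POT1 and ACD, and 42.6% of all 35116 windows hold it. DKC1 had 4 such matches, of which the pair from -201 to -192 overlap. An E-box (CACGTG), which MYC with MAX and also the USF proteins bind, was found in 6.34% of all windows, and among these genes in that of TERT, from -163 to -158, and at 2 places in that of NOP10. The ETS motif CCGGAAG, bound by GABP among others, was present in 8.52% of windows and in those of NOP10, GAR1 and TERF2IP and in the second window of TINF2. Genes that fell and genes that rose shared the GC box, and NOP10, which was not called, held both E-box and ETS matches. These matches describe letters in a window of the reference genome. The promoter sequence of the cells used was not read, and no binding was measured.

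TERT, which encodes the catalytic subunit and is found on the minus strand of chromosome 5 (GRCh38, 1253147 to 1295068), had the lowest level of the 10 genes. It was measured at 1.71, 1.43 and 1.75 FPKM in DMSO replicates 1, 2 and 3, from 136, 111 and 138 fragments. In PD replicates 1, 2 and 3 it was at 0.767, 0.692 and 0.518 FPKM, from 64, 56 and 39 fragments. Every PD library was therefore below every DMSO library. The mean level in PD (0.659 ± 0.128 FPKM, SD, n = 3) was 40.5% of that in DMSO (1.63 ± 0.170 FPKM, SD, n = 3). On the log2(FPKM + 1) scale TERT changed by -0.67, with a 95% confidence interval from -0.89 to -0.44 and an adjusted p of 0.00087 (limma). At so low a level the added 1 understates the change. With a pseudocount of 0.1 the log2 fold change was -1.20, and limma voom on fragments gave -1.30 with a 95% confidence interval from -1.68 to -0.93. In both of these fits TERT was past 2-fold, as were 8.67% of all tested genes with the pseudocount of 0.1 and 11.5% with voom. An antisense lncRNA shares 106 of the 5920 exon bases of TERT.

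DKC1 encodes dyskerin, the pseudouridine synthase of H/ACA particles, which is essential for the stability of TERC. It lies on chromosome X from 154762742 to 154777689. Its levels were 83.3, 82.3 and 84.7 FPKM in the DMSO libraries and 55.2, 53.1 and 54.5 FPKM in the PD libraries. The gap between the groups was many times the spread within either, with a log2 fold change of -0.61 (95% confidence interval -0.68 to -0.54, adjusted p = 6.3e-06, limma). DKC1 RNA thus fell to 65.1% of the DMSO level, and with at least 3738 fragments in each library its counting error is small. Its introns carry small nucleolar RNAs, of which SNORA36A and SNORA56 share 132 and 129 bases with exons annotated for DKC1.

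GAR1, whose protein joins the H/ACA particle last in its assembly, lies on chromosome 4 from 109815510 to 109824740. It stood at 21.5, 20.8 and 20.7 FPKM in DMSO and at 12.9, 13.8 and 13.0 FPKM in PD. The fall to 63.0% of the DMSO level was close in size to that of DKC1, with a log2 fold change of -0.63 (95% confidence interval -0.73 to -0.53, adjusted p = 2.0e-05, limma). Accordingly, the ratio of DKC1 to GAR1 FPKM was 3.97 ± 0.107 in DMSO and 4.11 ± 0.234 in PD (SD, n = 3 each), and the groups overlapped in it.

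NOP10, the smallest protein of the particle, which contacts dyskerin directly, is encoded on chromosome 15 from 34339159 to 34343180. It had the highest level per length of the 10 genes, at 140.0, 134.4 and 148.7 FPKM in DMSO and 150.2, 153.4 and 144.6 FPKM in PD. The groups overlapped, and the log2 fold change of 0.08 was not called (95% confidence interval -0.02 to 0.18, adjusted p = 0.14, limma). It was called (0.12, adjusted p = 0.031) when DMSO replicate 3, the highest of its group, was left out. The interval does not reach the fall of DKC1 or GAR1. Hence the ratio of NOP10 to DKC1 FPKM was 1.69 ± 0.0626 in DMSO and 2.75 ± 0.122 in PD (SD, n = 3 each), with every PD library above every DMSO library.

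The double-stranded repeats are bound by the related proteins TRF1 and TRF2. TERF1, on chromosome 8 from 73008856 to 73048123, was at 3.23, 3.43 and 2.57 FPKM in DMSO and at 2.96, 3.004 and 3.05 FPKM in PD. Its PD values lay inside the range of the DMSO values, which DMSO replicate 3 widened. The log2 fold change was -0.02 (95% confidence interval -0.23 to 0.19, adjusted p = 0.86, limma), and without DMSO replicate 3 it was -0.11 (adjusted p = 0.17). TERF1 has 7 annotated pseudogenes with which reads could be shared, and the 4 that were listed with values reached at most 0.347 FPKM.

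TERF2, on chromosome 16 from 69355567 to 69408571, was at 6.92, 7.55 and 7.50 FPKM in DMSO and at 8.13, 8.26 and 7.97 FPKM in PD. All PD libraries were above all DMSO libraries, by a log2 fold change of 0.13 (95% confidence interval 0.02 to 0.25) with an adjusted p of 0.046 (limma), just past the threshold. Only 2 of 12 other settings kept this call, and after upper quartile scaling the log2 fold change was 0.01 (adjusted p = 0.86). With the replicate number as a block the adjusted p was 0.073. The response of TERF1 relative to TERF2 was -0.15 on the log2 scale (exact permutation test, two-sided, p = 0.40, n = 3 per group), so no difference between the related genes was detected, and 0.10 is the smallest p this design allows.

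TERF2IP encodes RAP1, which reaches telomeres through TRF2 and also has roles away from them, and lies on chromosome 16 from 75647773 to 75761872. It was at 14.7, 14.6 and 15.1 FPKM in DMSO and at 19.3, 19.7 and 19.6 FPKM in PD. The libraries of each group lay close together and the groups were well apart, with a rise of 32.0% in the mean and a log2 fold change of 0.38 (95% confidence interval 0.30 to 0.46, adjusted p = 8.3e-05, limma). It had the largest share of shelterin RNA in both groups. Exons of KARS1, on the opposite strand, share 176 of the 4422 exon bases of TERF2IP, and KARS1 was at 41.3 FPKM in DMSO and 43.3 in PD (log2 fold change 0.07, adjusted p = 0.14).

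TINF2, for the central bridge TIN2, lies on chromosome 14 from 24238286 to 24242663. Its values were 10.9, 10.5 and 12.2 FPKM in DMSO and 15.2, 15.6 and 14.7 FPKM in PD. Each PD library exceeded each DMSO library, and the log2 fold change was 0.41 (95% confidence interval 0.27 to 0.55, adjusted p = 0.00079, limma). GMPR2 on the opposite strand shares 957 of the 4378 exon bases of TINF2. GMPR2 went from 14.4 to 11.8 FPKM, opposite in direction to TINF2, and its part in the values of TINF2 was not tested.

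ACD, which encodes TPP1, the subunit that recruits telomerase through its TEL patch, showed the largest rise of the 6 shelterin genes. It lies on chromosome 16 from 67657512 to 67660810. It was at 8.75, 8.83 and 9.72 FPKM in DMSO and at 14.1, 14.1 and 15.0 FPKM in PD. The PD libraries all lay far above the DMSO libraries, with a rise of 57.8% in the mean and a log2 fold change of 0.61 (95% confidence interval 0.48 to 0.73, adjusted p = 6.5e-05, limma). CARMIL2 on the opposite strand shares 58 of its 3218 exon bases and was at 0.0659 FPKM in DMSO and 0.175 in PD.

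POT1, for the single-strand binding partner of TPP1, lies on chromosome 7 from 124822386 to 124929983. It was at 9.07, 9.22 and 9.02 FPKM in DMSO and at 9.07, 8.36 and 8.01 FPKM in PD. PD replicate 1 was level with the DMSO libraries and the other two PD libraries were lower. The log2 fold change of -0.09 was not called (95% confidence interval -0.22 to 0.03, adjusted p = 0.16, limma). It was called without PD replicate 1 (-0.14, adjusted p = 0.048) and after upper quartile scaling (-0.22, adjusted p = 0.0089). In DMSO, POT1 and ACD had the same mean level, 9.10 ± 0.101 and 9.10 ± 0.540 FPKM (SD, n = 3 each), whereas in PD they were at 8.48 ± 0.544 and 14.4 ± 0.512 FPKM. The response of POT1 relative to ACD was -0.70 on the log2 scale (exact permutation test, two-sided, p = 0.10, n = 3 per group), the smallest p that 3 against 3 libraries allow. POT1 was below ACD in 3 of 3 PD libraries. In DMSO it was below ACD only in replicate 3, at 9.02 against 9.72 FPKM.

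**Figure D2:**
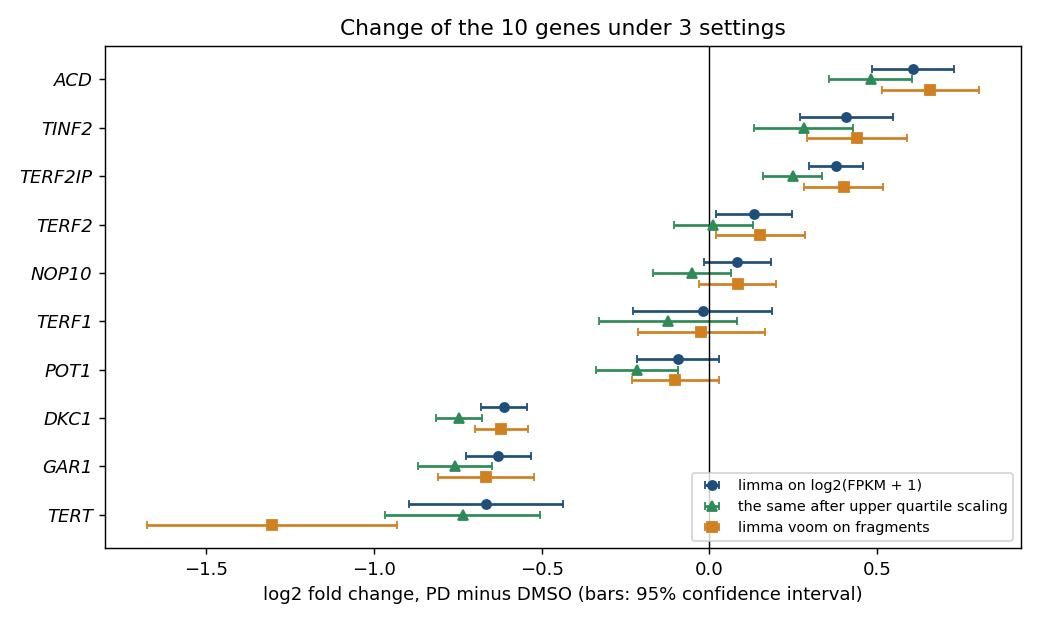
Points give the log2 fold change of each gene (PD minus DMSO, horizontal axis) with 95% confidence intervals under limma on log2(FPKM + 1), the same after upper quartile scaling, and limma voom on fragments. TERT, GAR1 and DKC1 lie left of 0 and ACD, TINF2 and TERF2IP right of 0 under all 3, the interval of TERF2 includes 0 after upper quartile scaling, and that of TERT is the widest.

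FPKM are per length, so the transcripts of the complex can also be set beside each other within a library. The 6 shelterin genes summed to 53.6, 54.2 and 56.2 FPKM in the DMSO libraries and to 68.8, 69.0 and 68.3 FPKM in the PD libraries. ACD made up 16.6% ± 0.573 of that sum in DMSO and 20.9% ± 0.854 in PD (SD, n = 3 each). The share of POT1 was 16.7% ± 0.530 in DMSO and 12.3% ± 0.759 in PD, and that of TERF2 was 13.4% ± 0.509 and 11.8% ± 0.149. For both, every PD library was below every DMSO library. TERF1 had the smallest share, 5.65% ± 0.943 in DMSO and 4.37% ± 0.0836 in PD. In DMSO the order of levels was TERF2IP, TINF2, POT1 and ACD together, TERF2 and TERF1, and each step apart from POT1 and ACD separated all 3 libraries. In PD the order was TERF2IP, TINF2, ACD, POT1, TERF2 and TERF1, where TINF2 and ACD overlapped, as did POT1 and TERF2. Relative to TERT, shelterin RNA was 33.8 ± 3.47 times as abundant in DMSO and 107.1 ± 22.03 times in PD. These ratios rest on the gene lengths the authors used, which the steps in the values give as 8831 bases for TERF1, 4616 for TERT and 554 for NOP10, for example.

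**Figure D3:**
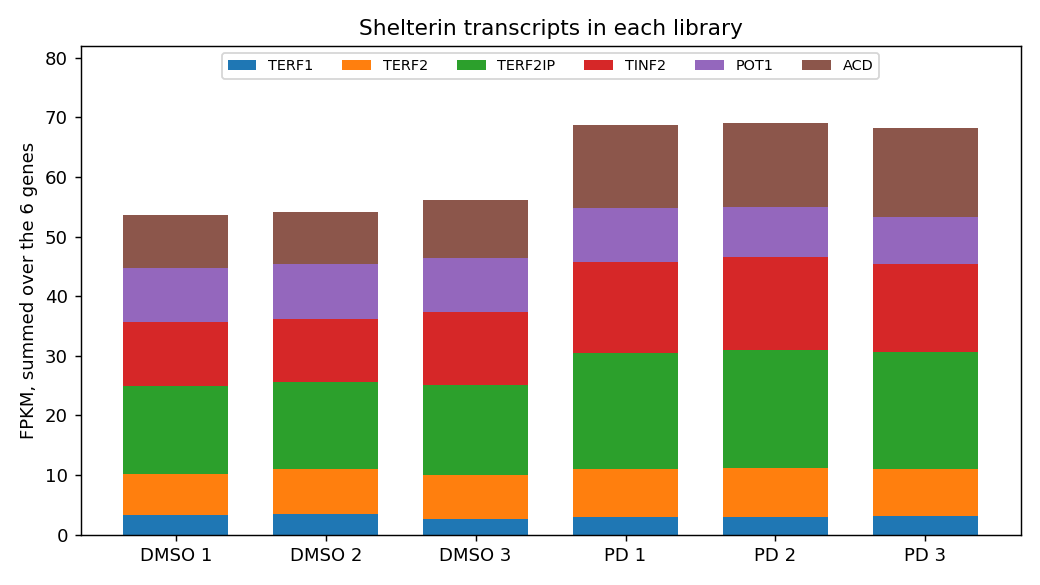
Bars stack the FPKM of the 6 shelterin genes (vertical axis) in each of the 6 libraries. The sums are 53.6 to 56.2 FPKM in DMSO and 68.3 to 69.0 FPKM in PD, and the ACD, TINF2 and TERF2IP segments lengthen the most in PD.

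Against all tested genes, the changes of the members were moderate in size on the log2(FPKM + 1) scale. For TERT this scale understates the change, which was -1.20 with a pseudocount of 0.1 and -1.30 with voom. The median absolute log2 fold change was 0.27 over the 14400 genes, and those of TERT, GAR1, DKC1 and ACD were larger than the change of 84.1% to 87.2% of them. TERF2IP and TINF2 were at 65.2% and 68.4% in that order of size, and TERF2, POT1, NOP10 and TERF1 below 30%. The tested genes whose 6 values followed those of TERT most closely were IL2RG, BAG1 and ARID2, chosen by the root mean square difference of the centred log2(FPKM + 1) over 6 libraries, which was 0.042 for IL2RG and 0.046 for BAG1 and ARID2. BAG1 encodes a co-chaperone of HSP70 proteins and ARID2 a subunit of a chromatin remodelling complex. BAG1 was at 28.8 to 31.0 FPKM in DMSO and 17.9 to 19.8 in PD. ARID2 was at 5.21 to 5.48 FPKM in DMSO and 2.89 to 3.35 in PD. Since the added 1 understates the change of TERT, genes matched on this scale can differ from it in the ratio of PD to DMSO FPKM. IL2RG, a cytokine receptor chain whose exons overlap another gene, was itself low, at 0.670 to 0.974 FPKM in DMSO and 0.111 to 0.241 in PD.

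**Figure D4:**
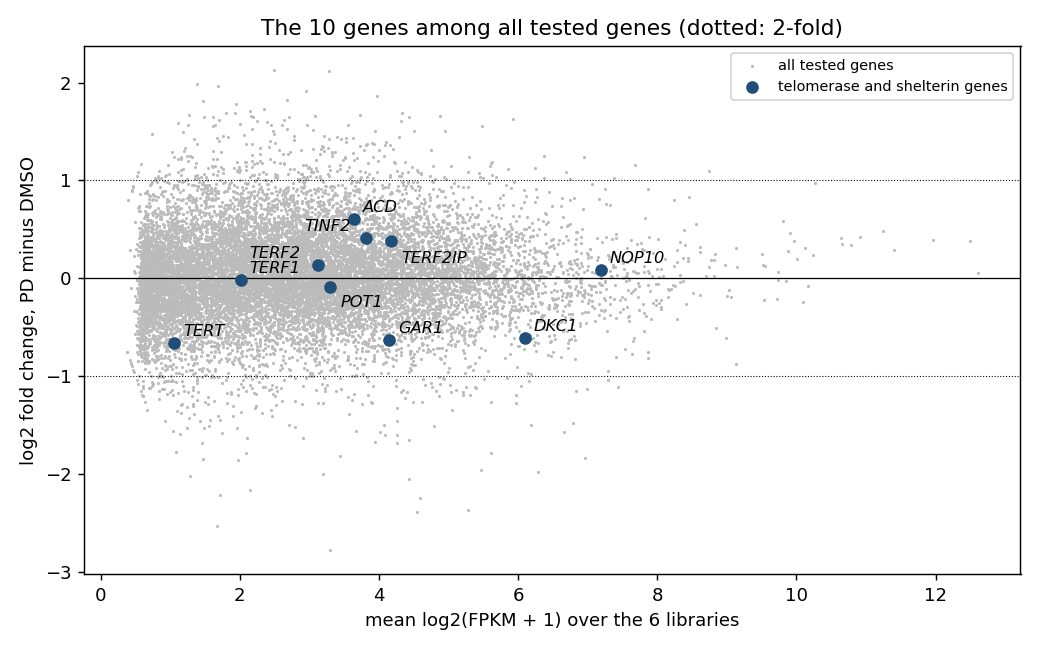
Each grey point is a tested gene, with its mean log2(FPKM + 1) over 6 libraries (horizontal axis) and its log2 fold change (PD minus DMSO, vertical axis), and the 10 telomerase and shelterin genes are in blue. All 10 lie between the dotted lines at 2-fold on the log2(FPKM + 1) scale, with TERT at the low end of expression and NOP10 at the high end.

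Other factors assemble telomerase and mature its RNA. Of 16 such genes 15 were tested, and 4 were higher, 5 lower and 6 not called, and the median change on the log2 scale was -0.001. Of all tested genes 31.9% were higher and 26.2% lower, so the share called in this list was close to the background. After upper quartile scaling 3 were higher and 8 lower, with a median of -0.13. NOLC1, a nucleolar chaperone of H/ACA particles, fell from 149 to 83.6 FPKM (log2 fold change -0.82). ZCCHC8, a subunit of the nuclear exosome targeting complex that trims TERC, fell from 10.3 to 6.40 FPKM (-0.61). TEP1, a telomerase-associated protein that is also part of vault particles, rose from 1.87 to 4.03 FPKM (0.81), a low level at which the added 1 understates the change. NHP2, the remaining H/ACA protein, went from 37.8 to 41.3 FPKM (0.12, adjusted p = 0.042), a call that 3 of 12 other settings kept and that turned to -0.01 after upper quartile scaling. TERC itself has no poly(A) tail in its mature form, and at a mean of 0.108 FPKM in DMSO and 0.0341 in PD it was not tested.

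The CST complex stops telomerase and brings in DNA polymerase alpha to fill in the C-rich strand. Of 7 genes of CST and of polymerase alpha with its primase 6 were tested, and 4 rose and 1 fell, beside 31.9% and 26.2% of all tested genes. STN1, a CST subunit, rose from 4.12 to 8.20 FPKM (log2 fold change 0.85), and CTC1, the largest CST subunit, from 1.90 to 2.55 FPKM (0.30, adjusted p = 0.013), a call that 11 of 12 other settings kept. POLA2 (0.35) and PRIM2 (0.30), subunits of polymerase alpha and primase, also rose, and exons of STN1 and POLA2 overlap other genes. POLA1, the catalytic subunit, fell (-0.23) and PRIM1 was not called (0.16, adjusted p = 0.079). TEN1, whose exons overlap another gene, was at most 0.105 FPKM in the mean of a group and so under the minimum. The median of the 6 was 0.30, beside 0.01 for all tested genes.

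Among 22 partners of shelterin and other telomere maintenance genes, 21 were tested, with 7 higher, 4 lower and 10 not called and a median of 0.07, and the share called was not above the 58.1% of all tested genes. After upper quartile scaling, which shifts the fold changes of genes in general downward, 4 were higher and 9 lower and the median was -0.05. BLM, a helicase that resolves recombination intermediates and G-quadruplexes, rose from 5.86 to 11.8 FPKM (log2 fold change 0.90). ATRX, the chromatin remodeller whose loss marks telomerase-independent telomere maintenance, fell from 6.15 to 3.996 FPKM (-0.52), and RIF1, a regulator of replication timing and break repair, from 6.75 to 4.43 FPKM (-0.52). Exons of BLM and RIF1 overlap other genes. RTEL1, a telomeric helicase gene whose exons overlap another gene, was listed at means of 0.0748 and 0.0580 FPKM and was not tested.

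Of 24 genes known to act on the TERT promoter 23 were tested, and 12 were lower, 5 higher and 6 not called, with a median of -0.12, where 26.2% of all tested genes were lower and 31.9% higher. After upper quartile scaling 15 were lower and 2 higher. MYC, an activator of TERT and of DKC1, fell from 216 to 112 FPKM (log2 fold change -0.95, adjusted p = 6.7e-05, limma). HIF1A, the hypoxia factor, fell from 30.2 to 19.6 FPKM (-0.60). MEN1, which encodes menin, a repressor of TERT, rose from 10.9 to 18.4 FPKM (0.70). Exons of MYC and HIF1A overlap other genes. Without DMSO replicate 1 or without PD replicate 2, 11 genes of this list were called in place of 17.

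TERT expression commonly goes with cell division, so 16 genes of dividing cells were counted beside it. Of these 12 were lower, 3 higher and 1 not called, with a median of -0.36, beside 26.2% lower and 31.9% higher over all tested genes. PLK1 (log2 fold change -1.50) and AURKA (-1.35), kinases of mitosis, and TOP2A (-1.05), a topoisomerase of dividing cells, fell the most, and exons of PLK1 overlap another gene. The 3 higher genes act in DNA synthesis. They were RRM2 (0.55) and TYMS (0.37), which supply nucleotides, and PCNA (0.12, adjusted p = 0.027), the sliding clamp. The call of PCNA was kept by 5 of 12 other settings, and PCNA was at -0.02 after upper quartile scaling. Other genes of DNA synthesis were lower, namely the helicase subunits MCM2 (-0.40), MCM5 (-0.33) and MCM3 (-0.14). The call of MCM3 was kept by 7 of 12 other settings. The helicase subunit MCM7 was not called (0.06, adjusted p = 0.29), and exons of TYMS, MCM2 and MCM7 overlap other genes. The summed level of the list ran from 992 to 1016 FPKM in DMSO and from 788 to 807 FPKM in PD. Its part in the fall of TERT, DKC1 and GAR1 was not tested.

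**Figure D5:**
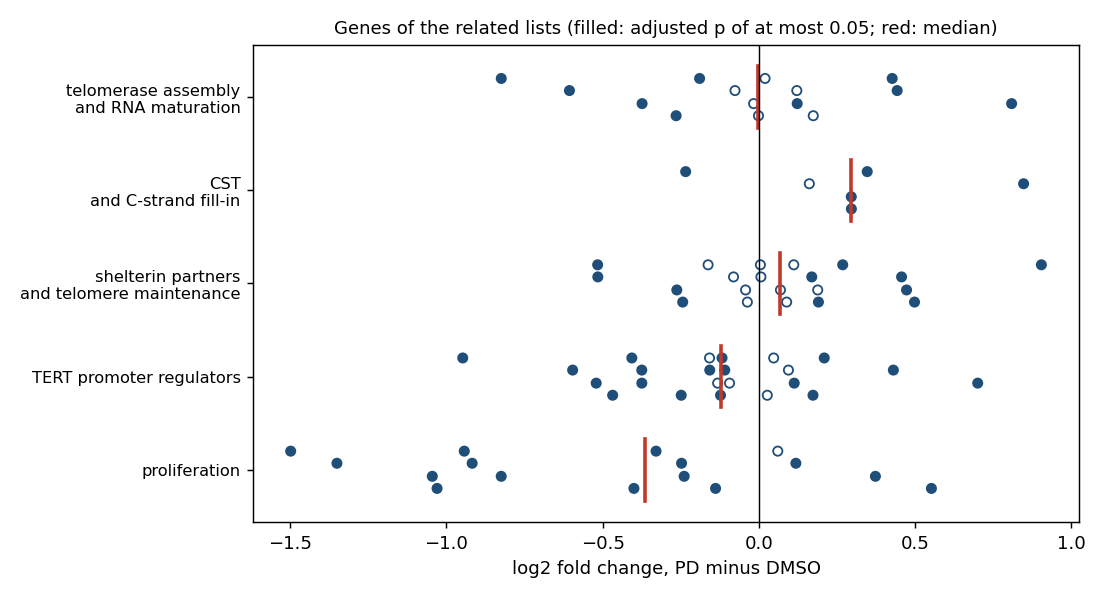
Each point is a tested gene of a list (vertical axis) at its log2 fold change (PD minus DMSO, horizontal axis), filled where the adjusted p was at most 0.05, and the red line is the median of the list. The medians run from -0.36 for proliferation to 0.30 for CST and C-strand fill-in.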

How the data were processed

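RNA from 3 PD-treated and 3 DMSO-treated dishes was measured, with groups and replicate numbers from the sample titles. The authors mapped the reads with HISAT2 (build hg38), obtained gene counts from HTSeq (0.6.0 per the labels) and deposited FPKM, the only values used. The annotation release and the strand setting of the counting are not given in the sources used here. Symbols and exons came from GENCODE release 44 (28161 of 28563 identifiers matched), and promoters from RefSeq.

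The 14400 genes that averaged 0.5 FPKM or more were tested with limma 3.58.1 in R 4.3.3 on log2(FPKM + 1) with an intensity-dependent prior, without covariates, with Benjamini-Hochberg adjustment over all of them. Fold changes on this scale understate those of low genes. Calls needed an adjusted p of at most 0.05, and 2-fold counts a change of at least 2-fold as well. Exact permutation tests over libraries (scipy 1.17.1) were two-sided. Whole fragments (within 0.001) were worked back from FPKM and library totals for all but 1 gene, with the GENCODE exon length for 12879 genes and with a length found from the steps in the values for 15683. They describe depth and entered limma voom with at least 10 fragments in 3 or more libraries. The limma p-values set the difference between the groups against the spread between dishes, which the prior moderates across genes.

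Alternatives were a pseudocount of 0.1, no filter, the replicate number as a block, each library left out, median-of-ratios and upper quartile scaling, and voom. The limma fit was tested on simulated data. No libraries of a group were duplicates, since chi-square per gene was 2.30 to 3.78 within groups and 52.3 to 61.0 between them. The 10 genes, the lists of related genes and of cell type markers, and the tests were chosen with earlier results of these data known. All 10 genes are named, with the 3 largest called changes of each related list and the 3 genes most like TERT. NHP2, TERC, CTC1, POLA1, PRIM1, TEN1, RTEL1, RRM2, TYMS, PCNA, MCM2, MCM3, MCM5, MCM7, KARS1, GMPR2 and PARD6A were named after their values were seen.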

Additional observations from a re-analysis of the deposited data

How the results depend on the processing

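TERT, DKC1, GAR1, TERF2IP, TINF2 and ACD kept their direction and their call under all 12 alternatives. TERT ranged from -1.30 to -0.60, DKC1 from -0.75 to -0.60, GAR1 from -0.76 to -0.61, TERF2IP from 0.25 to 0.40, TINF2 from 0.28 to 0.47 and ACD from 0.48 to 0.66 on the log2 scale. TERF2 kept its direction, but its call held under 2 of 12. NOP10 turned to -0.053 after upper quartile scaling, and TERF1 to 0.01 without DMSO replicate 1 and to 0.043 without DMSO replicate 2. Between 6 and 7 of the 10 genes were called when single libraries were left out. TERF2 was called in none of these fits. The count of 7 was reached with NOP10 (without DMSO replicate 3) or POT1 (without PD replicate 1) in its place. The number past 2-fold rose from 0 to 1, TERT, with a pseudocount of 0.1 and 1 with voom, and that over all genes from 520 to 1248 and 1734. In the list of TERT promoter genes 11 to 15 were called when single libraries were left out. Upper quartile scaling moved the median of all genes by -0.11 (log2) and gave 3376 higher and 5263 lower calls, 39.1% higher in place of 54.8%. Relative to the median of all tested genes, TERF2 was at 0.12 as deposited and 0.11 after this scaling, and NOP10 at 0.07 and 0.04. The replicate numbers did not pair the libraries (correlations of same-numbered deviations -0.03, -0.005 and 0.09). With the replicate block 8032 genes were called in place of 8368, and of the 10 genes 6, the lost call being TERF2. The 39 to 138 fragments of TERT limit the precision of its fold change.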

Other observations

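PARD6A, which encodes a cell polarity protein, starts 136 bases from the start of ACD on the opposite strand in GENCODE. It went from 4.16 ± 0.901 FPKM in DMSO to 9.15 ± 0.577 FPKM in PD (SD, n = 3 each), and its log2 fold change was 0.99 (adjusted p = 0.00038, limma). Both genes of this divergent pair were therefore higher in PD. For TERF2IP, the neighbour KARS1 starts 870 bases away on the opposite strand, so that the starts overlap, and its log2 fold change of 0.07 was not called (adjusted p = 0.14), beside 0.38 for TERF2IP.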
